A study of Hevea brasiliensis with 2 samples.

Results

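Water, proton and ion transporters of rubber tree latex were compared between clone CATAS8-79 and clone PR107 of Hevea brasiliensis. The set holds 68 unigenes, which are transcripts assembled from the reads without a genome, of 51192 unigenes with counts. They were chosen by search words for aquaporins, channels, exchangers and pumps in the best database hits of the 6726 unigenes that the authors called different between these same libraries. A unigene was thereby selected on its read ratio (an absolute log2 ratio of 1 or more at a false discovery rate of 0.001 or less), so every difference below is a description and no test is given. Within the set, 18 families of annotation were found.

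The study set these clones side by side for their latex flow and regeneration, at the first tapping of virgin trees that had no treatment. Each library is a pool of latex from several trees of 1 clone, with 1 library per clone, so the spread between trees or pools was not measured. The sample labels write the clone CATAS8-79 as RY8-79 and give an age of 3 years for both clones, which differs from the age in the study's methods. Library totals, as multiples of 1000000 reads counted on unigenes, were 6.92 for CATAS8-79 and 6.87 for PR107. Each ratio below is the log2 ratio of RPM (reads per 1000000 counted reads), PR107 over CATAS8-79, with its 95% Clopper-Pearson interval in parentheses, which covers counting error only. RPKM is reads per kilobase of unigene per 1000000 counted reads, the scale used wherever levels of separate unigenes are compared. In bulk latex, a smaller share of one cell type's content and less RNA per cell cannot be told apart.

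Latex is the cytoplasm of laticifers, the cells that make rubber, and it flows out under turgor when the bark is cut. Water then enters the laticifers from neighbouring cells, and aquaporins are the membrane channels through which water passes plasma membranes and tonoplasts. The plasma membrane H+-ATPase sets up the proton gradient that drives uptake of sugars and ions. V-type H+-ATPase and the pyrophosphate-energized proton pump acidify vacuoles, which in latex include the lutoids, the vacuolar bodies that burst when laticifers are wounded.

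The set was divided nearly evenly between the clones. Of the 68 members, 33 (48.5%) were higher in PR107 and 35 (51.5%) in CATAS8-79, while 55.1% of all 6726 called unigenes were higher in PR107 and 44.9% in CATAS8-79. The called unigenes themselves are 13.1% of those counted. Members 4-fold or more apart numbered 19 (27.9%), against 42.6% of called unigenes and 38.9% of the 4917 called unigenes with a best hit. Because the same contrast chose the members, nothing is read from these shares. The median absolute log2 ratio was 1.54 among members and 1.78 among called unigenes. Just inside the threshold, Unigene11467 had a log2 ratio of 1.0 and Unigene12289 one of -1.01, and unigenes just outside it carry no annotation in the tables used here.

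Direction also went with the number of the unigene in the assembly. Among 18 members numbered 40000 or higher, 14 were higher in PR107 (77.8%, with 83.0% of called unigenes in that range). Among 50 members with lower numbers, 19 were higher in PR107 (38%, with 44.9% of called unigenes in that range). The part of unigene numbering in the ratios was not tested, and this limit holds for every unigene below that is numbered 40000 or higher. Members were 205 to 2478 bp long, with a median of 585 bp, and 12 were shorter than 300 bp. A total of 10 best Swissprot hits were shared by 27 members, which may be pieces, alleles or copies of one gene, and 5 of those hits had members in both directions. Shared Nr hits are not in this count. Both libraries held the latex protein Hev b 7 (Unigene37703) at near levels, 397 reads in CATAS8-79 against 422 in PR107, giving a log2 ratio of 0.10 (-0.10 to 0.30). Of the latex marker words, small rubber particle protein found 1 called unigene (Unigene823, 51 and 274 reads), Hev b found that one and Unigene3181 (an enolase, 115 and 57 reads), and rubber elongation factor and hevein found 0, which says nothing of their level. Green tissue words found 18 called unigenes, 9 higher in each clone, with 15356 reads in CATAS8-79 against 8078 in PR107. Most of these reads came from 15 photosystem unigenes, with 15118 and 7723 reads. The 8 of them higher in CATAS8-79 all matched photosystem I P700 apoprotein A1 or A2, and the other 7 were higher in PR107. Ribulose bisphosphate carboxylase found 2 unigenes, with 91 and 317 reads, and chlorophyll a-b binding found 1, with 147 and 38. The part of green tissue reads in the results below was not tested.

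**Figure D1:**
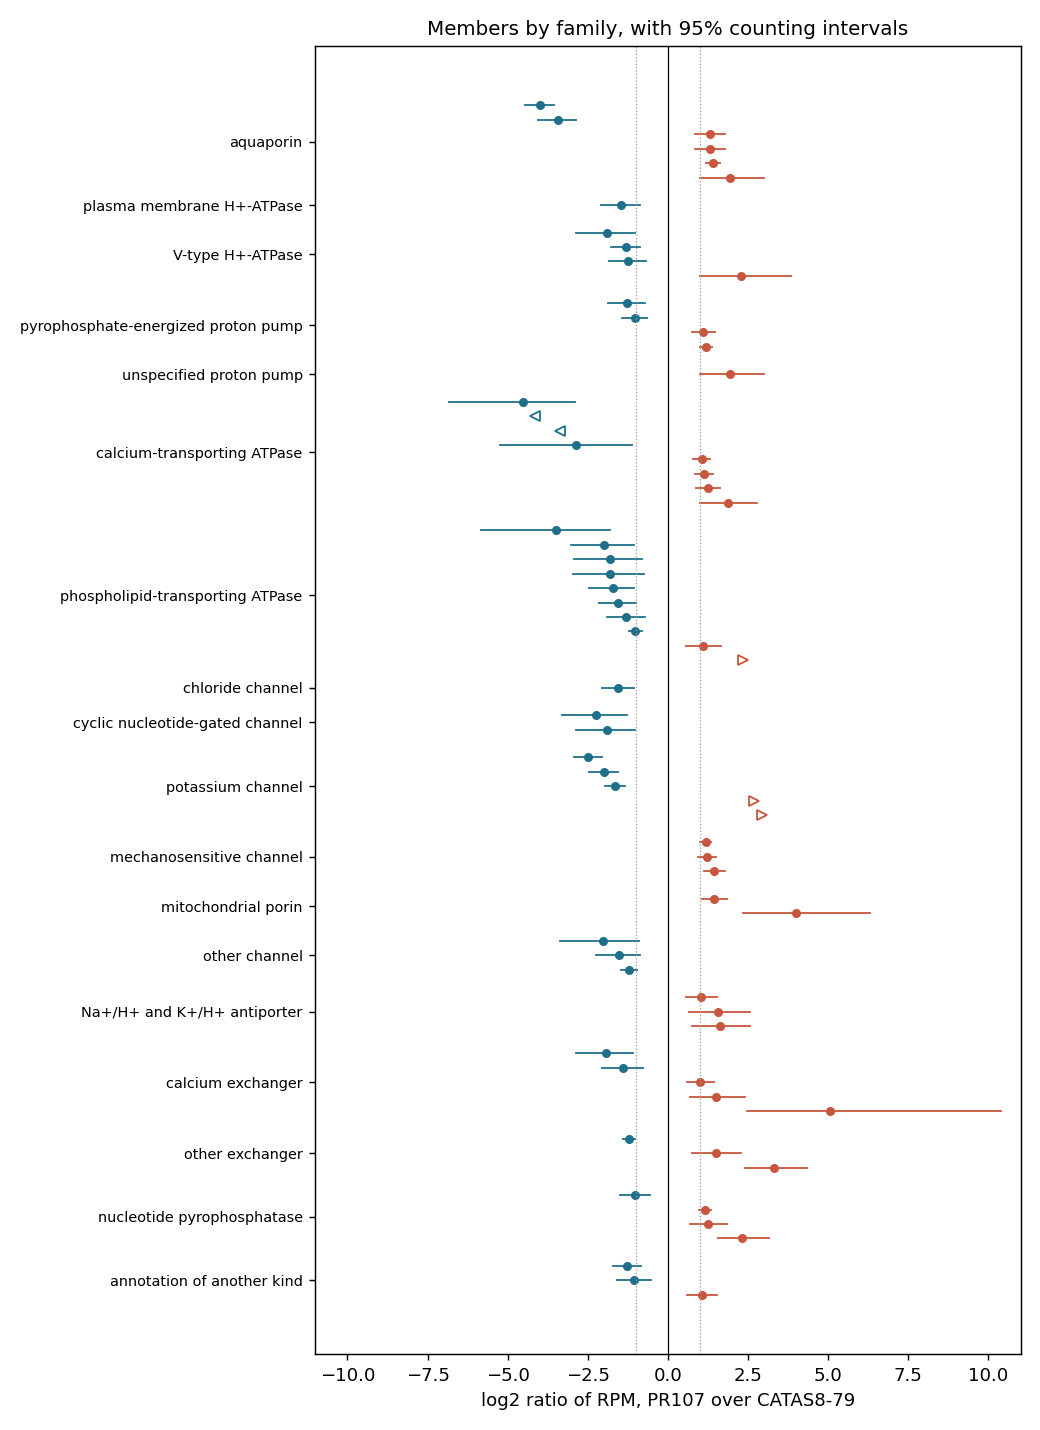
Log2 ratio of RPM (PR107 over CATAS8-79, horizontal axis) for the 68 members, grouped by family, with 95% counting intervals as lines and 2-fold marked by dotted lines. Open triangles are the 5 members with 0 reads in 1 clone, drawn at their bound against 3 reads. The mechanosensitive channels, Na+/H+ and K+/H+ antiporters and porins all lie to the right of 0 (PR107), and the cyclic nucleotide-gated channels all lie to the left (CATAS8-79). Of all called unigenes, 55.1% were higher in PR107 and 44.9% in CATAS8-79.

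The aquaporins differed in which members were abundant in each clone. Aquaporins of the PIP type sit in the plasma membrane, those of the TIP type in the tonoplast, and NIP and SIP types are smaller groups of the same family. Unigene21433, whose best hit is PIP2-7 in Swissprot and a grape PIP2;2 in Nr, had 717 reads (RPKM 118.8) in CATAS8-79 against 45 reads (RPKM 7.51) in PR107. The log2 ratio of Unigene21433 was -3.98 (-4.45 to -3.55), which is 15.8-fold lower in PR107. By RPKM it stood above 92.5% of all unigenes in CATAS8-79 and above 37.3% of them in PR107. The tonoplast aquaporin Unigene4761 (TIP2-1) had 305 reads (RPKM 45.5) in CATAS8-79 against 28 reads (RPKM 4.21) in PR107, giving a log2 ratio of -3.43 (-4.05 to -2.87) and a level 10.8-fold lower in PR107.

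The other 4 aquaporins were higher in PR107. Unigene22741 (PIP2-1), another plasma membrane type, had 244 reads (RPKM 64.5) in CATAS8-79 against 645 reads (RPKM 171.7) in PR107, giving a log2 ratio of 1.41 (1.20 to 1.63). Unigene23892 (NIP6-1) and Unigene24686 (probable SIP2-1) each had 53 reads in CATAS8-79 against 130 in PR107, giving a log2 ratio of 1.31 (0.83 to 1.79). Unigene46361 (NIP1-2) was the least abundant aquaporin in CATAS8-79, with 12 reads there and 46 in PR107, giving a log2 ratio of 1.95 (1.01 to 3.00). PIP2-7 and PIP2-1 thus went in opposite directions although both are of the plasma membrane type.

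Sums over a family hold called unigenes alone, each chosen for a ratio of at least 2-fold, so aquaporins that were not called are in none of the totals or shares below. Where members go both ways, a sum smaller than its members follows from that choice and nothing is read from it. Summed over the 6 unigenes there were 1384 reads in CATAS8-79 against 1024 in PR107, giving a log2 ratio of -0.42 (-0.54 to -0.31). On the RPKM scale the family sum was 247 in CATAS8-79 against 233 in PR107, giving a log2 ratio of -0.09. The share of PIP2-7 in the summed RPKM of these 6 unigenes was 48.0% in CATAS8-79 and 3.23% in PR107, that of TIP2-1 was 18.4% and 1.81%, and that of PIP2-1 was 26.1% and 73.8%. The PIP2-7 and TIP2-1 unigenes took 73.8% of the reads of these 6 in CATAS8-79 and 7.13% in PR107. The summed log2 ratio was -1.58 without Unigene22741, the one with the most reads.

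**Figure D2:**
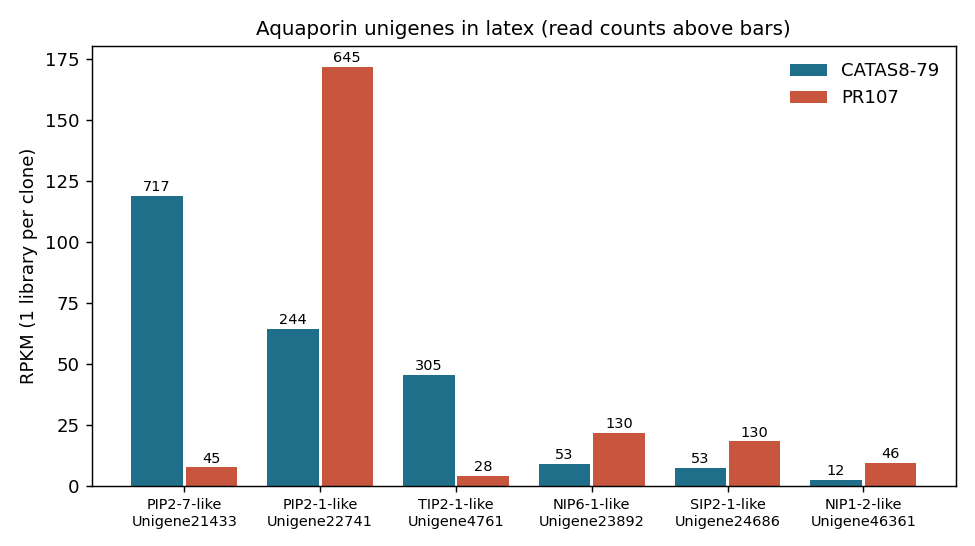
RPKM (vertical axis) of the 6 aquaporin unigenes in the CATAS8-79 library and the PR107 library, with the read count above each bar and no error bar because there was 1 library per clone. PIP2-7 and TIP2-1 are tall in CATAS8-79 (118.8 and 45.5) and low in PR107 (7.51 and 4.21), and PIP2-1 is the tallest bar of PR107 (171.7).

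Among proton pumps, the ATP-driven pumps were mostly higher in CATAS8-79 (44.9% of all called unigenes were). The only called plasma membrane H+-ATPase unigene was Unigene26843 (Plasma membrane ATPase 1), 270 bp long. It had 89 reads (RPKM 47.6) in CATAS8-79 against 32 reads (RPKM 17.3) in PR107, giving a log2 ratio of -1.46 (-2.10 to -0.87). V-type H+-ATPase is a rotary pump with a soluble head, which splits ATP, and a membrane ring, which carries protons. The ring subunit c2 (Unigene9543, proteolipid) had 145 reads in CATAS8-79 against 58 in PR107, giving a log2 ratio of -1.31 (-1.78 to -0.86). Membrane subunit a, which forms the proton path beside the ring, was found as Unigene29370 with 88 and 37 reads, a log2 ratio of -1.24 (-1.83 to -0.67). Stalk subunit F (Unigene36915, best hit a Hevea protein) had 53 reads in CATAS8-79 against 14 in PR107, giving a log2 ratio of -1.91 (-2.87 to -1.04). A further subunit a unigene, Unigene46302, was higher in PR107, with 6 reads in CATAS8-79 against 29 in PR107, giving a log2 ratio of 2.28 (0.99 to 3.84). Summed over the 4 V-type unigenes, there were 292 reads in CATAS8-79 against 138 in PR107, giving a log2 ratio of -1.07 (-1.37 to -0.77).

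The pyrophosphate-energized pump is a single-chain enzyme that uses pyrophosphate, a by-product of biosynthesis, in place of ATP. Its 4 unigenes were split evenly. Unigene12893 had 338 reads (RPKM 106.6) in CATAS8-79 against 758 reads (RPKM 241.0) in PR107, giving a log2 ratio of 1.18 (0.99 to 1.37), and had the highest RPKM of any member in PR107. Unigene46803, with the same best hit, had 99 reads in CATAS8-79 against 210 in PR107, giving a log2 ratio of 1.10 (0.74 to 1.46). Also with that hit, Unigene28502 had 88 reads in CATAS8-79 against 36 in PR107, giving a log2 ratio of -1.28 (-1.88 to -0.70). The remaining unigene, Unigene38211, whose best Nr hit is a Hevea pyrophosphatase, had 169 reads in CATAS8-79 against 82 in PR107, giving a log2 ratio of -1.03 (-1.43 to -0.64).

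The summed reads of this pump were 694 in CATAS8-79 against 1086 in PR107, giving a log2 ratio of 0.66 (0.52 to 0.80). That direction rested on 1 unigene, since without Unigene12893 the log2 ratio of the sum was -0.11. A unigene annotated only as a putative proton pump, Unigene28060, had 12 reads in CATAS8-79 against 46 in PR107, giving a log2 ratio of 1.95 (1.01 to 3.00).

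**Figure D3:**
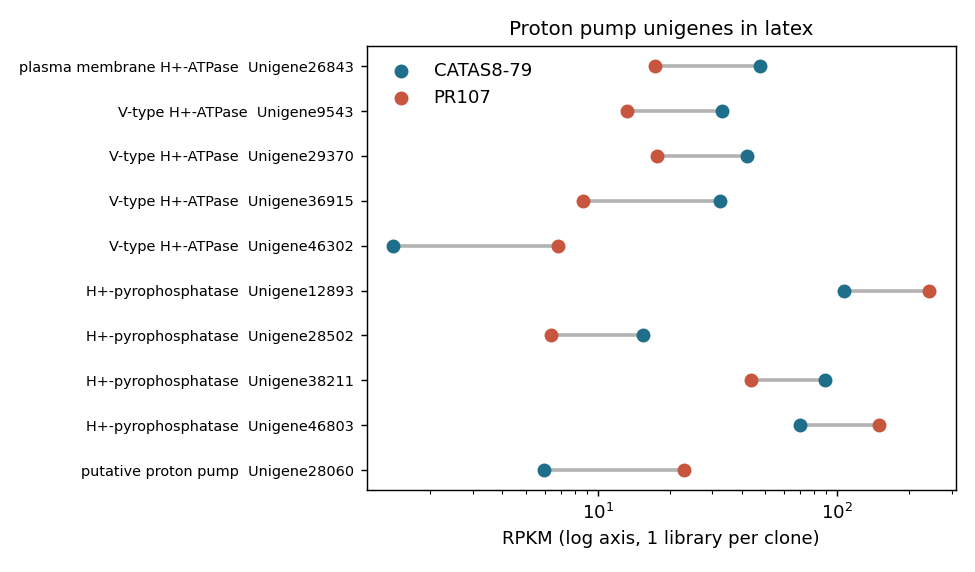
RPKM (horizontal log axis) of the 10 proton pump unigenes in each clone, with a grey line joining the pair of values. The plasma membrane pump unigene and 3 of 4 V-type unigenes lie higher in CATAS8-79, and the H+-pyrophosphatase unigenes are split, led by Unigene12893 at 106.6 in CATAS8-79 and 241.0 in PR107.

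Potassium channels of the inward-rectifying type let potassium into the cell. Their called unigenes were higher in CATAS8-79 (44.9% of all called unigenes were), and those annotated as outward-rectifying had reads in PR107 alone. Unigene40346 (AKT1, an uptake channel known from Arabidopsis roots) had 301 reads (RPKM 56.0) in CATAS8-79 against 53 reads (RPKM 9.93) in PR107, giving a log2 ratio of -2.49 (-2.94 to -2.07). KAT3, known in Arabidopsis as a subunit that tunes other inward channels, was the best hit of Unigene1305, with 356 and 112 reads and a log2 ratio of -1.66 (-1.98 to -1.35). It was also that of Unigene34892, with 214 reads in CATAS8-79 against 53 in PR107, giving a log2 ratio of -2.0 (-2.46 to -1.56). Summed, these 3 unigenes had 871 reads in CATAS8-79 against 218 in PR107, giving a log2 ratio of -1.99 (-2.21 to -1.77).

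The outward-rectifying channels, both with a best Nr hit in Hevea, were rare. Unigene41958 had 0 reads in CATAS8-79 against 19 in PR107, which is at least 6.38-fold higher when 0 is replaced by a floor of 3 reads. In the same way Unigene50473 had 0 and 23 reads, which is at least 7.73-fold higher in the PR107 library. Each floor is 3 reads in 1 library, or an RPM of 0.434 in CATAS8-79, and a fold against it leaves out the counting error of the other library. With that error included, the 95% interval of the log2 ratio began at 2.23 for Unigene41958 and at 2.53 for Unigene50473. Both unigenes are numbered over 40000, the range in which most called unigenes were higher in PR107. Over all 5 potassium channel unigenes the log2 ratio of the sum was -1.73 (-1.94 to -1.53) by reads and -1.52 by RPKM.

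The called unigenes for cyclic nucleotide-gated channels and for anion channels matching CLC-d and ALMT9 were higher in CATAS8-79. Of all called unigenes, 44.9% were higher there. Cyclic nucleotide-gated channels pass calcium and other cations when bound by cyclic nucleotides. CNGC1 (Unigene5602) had 53 reads in CATAS8-79 against 14 in PR107, giving a log2 ratio of -1.91 (-2.87 to -1.04). CNGC14 (Unigene22458) had 52 and 11 reads, a log2 ratio of -2.23 (-3.32 to -1.27). The sum of both was 105 reads in CATAS8-79 against 25 in PR107, giving a log2 ratio of -2.06 (-2.75 to -1.42).

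CLC-d, a chloride channel family member of internal membranes in Arabidopsis, was found as Unigene10143 with 141 reads in CATAS8-79 against 48 in PR107, giving a log2 ratio of -1.54 (-2.05 to -1.06). Unigene284 resembles ALMT9, a tonoplast anion channel of Arabidopsis, by its Nr text alone, and its best Swissprot hit is an uncharacterized protein. It had 466 reads in CATAS8-79 against 200 in PR107, giving a log2 ratio of -1.21 (-1.46 to -0.97). The chloroplast protein import channel TOC75 (Unigene25690) had 73 and 25 reads, a log2 ratio of -1.54 (-2.25 to -0.86). TOC75 carries proteins rather than ions. Unigene34821, with only a weak similarity to an animal calcium channel, had 33 reads in CATAS8-79 against 8 in PR107, giving a log2 ratio of -2.03 (-3.36 to -0.89).

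Mechanosensitive channels open when membrane tension rises. Their 3 called unigenes were higher in PR107 (55.1% of all called unigenes were). Unigene17596 has MSL5 as its best Nr hit and the uncharacterized protein At5g12080 as its best Swissprot hit. It had 387 reads (RPKM 59.8) in CATAS8-79 against 867 reads (RPKM 135.0) in PR107, giving a log2 ratio of 1.17 (1.0 to 1.35). It had more reads in PR107 than any other member. Unigene31441 had 160 and 371 reads, a log2 ratio of 1.22 (0.95 to 1.50), and Unigene51826 had 109 and 296 reads, a log2 ratio of 1.45 (1.13 to 1.78). These 2 unigenes share a bacterial best hit in Swissprot. The family had 656 reads in CATAS8-79 against 1534 in PR107, giving a log2 ratio of 1.24 (1.10 to 1.37).

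Porins of the mitochondrial outer membrane pass metabolites between mitochondria and cytosol. Their 2 called unigenes were higher in PR107 as well (55.1% of all called unigenes were). Their Nr text also names them voltage-dependent anion-selective channels. Unigene51776 had 80 reads in CATAS8-79 against 216 in PR107, giving a log2 ratio of 1.44 (1.07 to 1.83). Unigene40742, with the same best hit, had 3 and 47 reads, a log2 ratio of 3.98 (2.35 to 6.31). Both porin unigenes are numbered over 40000, the range in which 83.0% of called unigenes were higher in PR107. Summed, the log2 ratio was 1.67 (1.31 to 2.05), carried mostly by Unigene51776 with 85.5% of the reads.

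The 3 called unigenes for antiporters that exchange sodium or potassium for protons were higher in PR107, at low counts. Of all called unigenes, 55.1% were higher there. Unigene11278 (sodium/hydrogen exchanger 7, known in Arabidopsis for sodium export at the plasma membrane) had 55 reads in CATAS8-79 against 112 in PR107, giving a log2 ratio of 1.04 (0.56 to 1.53). Unigene10732 (exchanger 8) had 15 and 46 reads, a log2 ratio of 1.63 (0.76 to 2.58). Unigene46197 (KEA1, a potassium efflux antiporter of chloroplasts in Arabidopsis) had 14 and 41 reads, a log2 ratio of 1.56 (0.66 to 2.55). The name KEA1 is from its Nr text alone, and its best Swissprot hit is an uncharacterized protein. The summed log2 ratio was 1.26 (0.88 to 1.64), from 84 reads in CATAS8-79 against 199 in PR107.

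Calcium pumps of the autoinhibited type use ATP to move calcium out of the cytosol. Their called unigenes were split into 4 higher in each clone, and the sizes of the differences were unlike. The fewer the reads, the larger a ratio has to be to be called, so nothing is read from these sizes. The 4 that were higher in PR107 had 430 reads in CATAS8-79 against 948 in PR107, giving a log2 ratio of 1.15 (0.99 to 1.32). Among these, Unigene37193 (calcium-transporting ATPase 8) had 171 reads (RPKM 101.7) and 352 reads (RPKM 210.9), a log2 ratio of 1.05 (0.78 to 1.32). Unigene22142 (ATPase 10) had 161 reads in CATAS8-79 against 347 in PR107, giving a log2 ratio of 1.12 (0.85 to 1.40).

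The 4 calcium pump unigenes that were higher in CATAS8-79 had 3 or fewer reads in PR107, with 176 reads against 6 in sum. Unigene34936 (ATPase 9) had 54 reads in CATAS8-79 against 0 in PR107, at least 17.9-fold lower in PR107. Unigene39181 (ATPase 8) had 31 and 0 reads, at least 10.3-fold lower in PR107. Both folds are against the floor of 3 reads, and the 95% interval of the log2 ratio ended at -3.81 for Unigene34936 and at -2.97 for Unigene39181. With 3 reads each in PR107 there were Unigene40367 (ATPase 8) with 69 reads in CATAS8-79 and a log2 ratio of -4.51 (-6.83 to -2.91), and Unigene31175 (ATPase 10) with 22 reads and a log2 ratio of -2.86 (-5.25 to -1.13). The best hits ATPase 8 and ATPase 10 thus each held unigenes in both directions. Over all 8 unigenes there were 606 reads in CATAS8-79 against 954 in PR107, giving a log2 ratio of 0.67 (0.52 to 0.81) by reads and 0.87 by RPKM.

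Calcium exchangers, which move calcium against a flow of other cations, were 3 higher in PR107 and 2 higher in CATAS8-79. Cation/calcium exchanger 4 was the best Swissprot hit of Unigene11467 (73 reads in CATAS8-79 against 145 in PR107), Unigene22889 (17 and 48) and Unigene12897 (77 and 29). The log2 ratio was 1.51 (0.68 to 2.40) for Unigene22889 and -1.40 (-2.07 to -0.76) for Unigene12897, so this hit too went both ways. Unigene50981 (vacuolar cation/proton exchanger 3) had 1 read in CATAS8-79 against 33 in PR107, giving a log2 ratio of 5.06 (2.48 to 10.4). Unigene11204, of the sodium/calcium exchanger family, had 58 reads in CATAS8-79 against 15 in PR107, giving a log2 ratio of -1.94 (-2.87 to -1.10). The family sum, 226 against 270 reads, had a log2 ratio of 0.27 (0.01 to 0.53), which was -0.28 without Unigene11467.

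Phospholipid-transporting ATPases are flippases, pumps of the same enzyme superfamily that turn lipids from one membrane face to the other and carry no ion as cargo. Of these, 8 of 10 unigenes were higher in CATAS8-79 (44.9% of all called unigenes were). All 4 unigenes with the best hit ATPase 1 (ALA1) were higher there, with 871 reads in CATAS8-79 against 385 in PR107 in sum, a log2 ratio of -1.17 (-1.34 to -0.99). Unigene6185 led them, with 642 reads (RPKM 43.0) in CATAS8-79 against 315 reads (RPKM 21.3) in PR107, and Unigene28267 had 101 and 34 reads.

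Both ATPase 10 unigenes were also higher in CATAS8-79, with 69 reads against 13 in sum. Of these, Unigene40013 had 34 reads in CATAS8-79 against 3 in PR107, giving a log2 ratio of -3.49 (-5.84 to -1.82). The exceptions were Unigene7320 (ATPase 6) with 43 and 91 reads, a log2 ratio of 1.09 (0.55 to 1.65), and Unigene45002 (ATPase 3) with 0 and 15 reads, which is at least 5.04-fold higher in PR107 against the floor, with a 95% interval of the log2 ratio from 1.85 up. The other 2 ATPase 3 unigenes, Unigene29740 (87 and 35 reads) and Unigene31177 (39 and 11 reads), were higher in CATAS8-79. Flippase reads summed to 1109 in CATAS8-79 against 550 in PR107, giving a log2 ratio of -1.0 (-1.15 to -0.85).

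**Figure D4:**
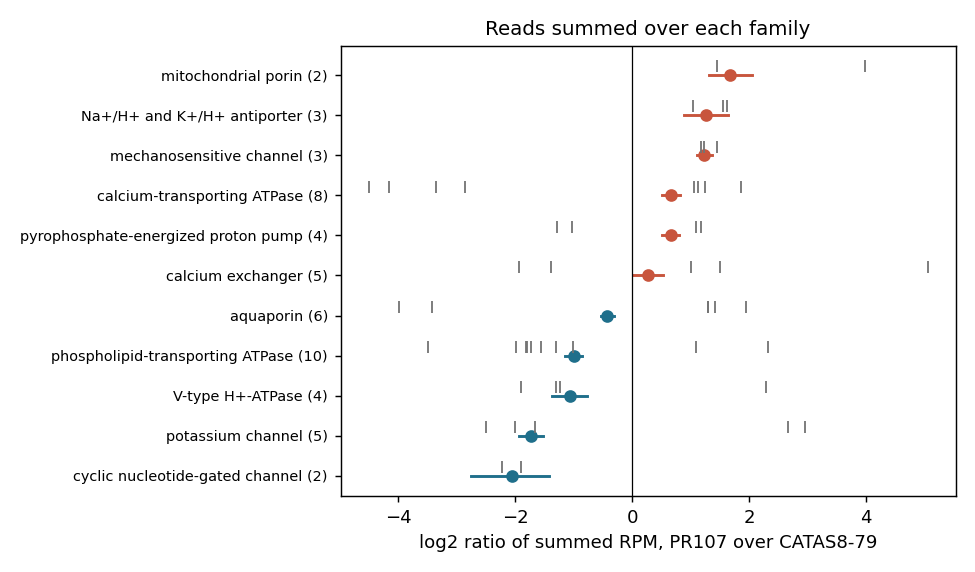
Log2 ratio of summed RPM (PR107 over CATAS8-79, horizontal axis) for families of 1 kind of protein with 2 or more unigenes, with 95% counting intervals as coloured lines, the number of unigenes in parentheses and single unigenes as grey ticks, those with 0 reads in 1 clone at their bound. Other channels, other exchangers, nucleotide pyrophosphatases and annotations of another kind are not drawn. Sums run from -2.06 for cyclic nucleotide-gated channels to 1.67 for mitochondrial porins, and in the aquaporin, V-type, pyrophosphate pump, potassium channel, flippase and calcium transporter families single unigenes lie on either side of 0.

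The 2 called sulfate transporter unigenes, which the Nr text describes as sulfate, bicarbonate and oxalate exchangers, went in opposite directions. Unigene24330 (sulfate transporter 4.1, chloroplastic) had 843 reads (RPKM 228) in CATAS8-79 against 361 reads (RPKM 98.4) in PR107, giving a log2 ratio of -1.21 (-1.39 to -1.03). It had more reads in CATAS8-79 than any other member. Unigene44877 (sulfate transporter 3.1) had 11 reads in CATAS8-79 against 108 in PR107, giving a log2 ratio of 3.31 (2.41 to 4.35). It is numbered over 40000, the range in which 83.0% of called unigenes were higher in PR107. The sugar phosphate exchanger Unigene45504 had 21 and 59 reads, a log2 ratio of 1.50 (0.76 to 2.29).

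The search words also drew in 7 unigenes that were set apart by hand as nucleotide-splitting enzymes or as proteins with mixed or indirect texts. Nucleotide pyrophosphatases split nucleotides and pump no protons. Unigene10167 (dCTP pyrophosphatase 1) had 358 reads (RPKM 101.6) in CATAS8-79 against 797 reads (RPKM 228.0) in PR107, giving a log2 ratio of 1.17 (0.98 to 1.35). Unigene46320 (dUTPase, which keeps uracil out of DNA) had 17 and 84 reads, a log2 ratio of 2.32 (1.55 to 3.16). Of the 2 nucleotide pyrophosphatase/phosphodiesterase unigenes, Unigene18093 had 38 and 90 reads and Unigene12289 had 118 and 58.

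The last 3 had mixed or indirect texts. They were Unigene26340 (a DNA polymerase epsilon subunit by Nr and a cGMP-gated cation channel by Swissprot, 62 and 128 reads), Unigene26535 (sodium channel modifier 1, 100 and 48 reads) and Unigene36050 (a voltage-gated potassium channel and binding protein by Nr and a BTB/POZ protein by Swissprot, 154 and 63 reads). Leaving these 7 out, 29 of 61 unigenes were higher in PR107 and 32 in CATAS8-79. No soluble inorganic pyrophosphatase was among the members.

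Further genes outside the search words, most of them signalling proteins rather than transporters, were mostly higher in PR107. This held for 18 of 23 called unigenes, against 55.1% of all called unigenes. CBL proteins are calcium sensors that bind CBL-interacting kinases, and in Arabidopsis such pairs switch on the channel AKT1 and the sodium/hydrogen exchanger 7. For CBL-interacting kinases 6 of 8 unigenes were higher in PR107, among them Unigene22229 (178 reads in CATAS8-79 against 641 in PR107) and Unigene9368 (172 and 551), and the other 2 had 0 reads in PR107. Among CBL sensors 4 of 5 unigenes were higher in PR107, such as Unigene9895 with 49 and 111 reads and Unigene27569 with 41 and 105.

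The 14-3-3 proteins bind and activate the plasma membrane H+-ATPase. For them 4 of 5 unigenes were higher in PR107, led by Unigene18575 (561 and 1305 reads) and Unigene14772 (224 and 475). The only called unigene of the plasma membrane pump (Unigene26843, 270 bp) was higher in CATAS8-79. Pump unigenes that were not called carry no annotation here, so the level of the whole pump is not known. Of 4 potassium transporters, which are carriers and not channels, 3 were higher in PR107, with Unigene2331 at 67 and 154 reads and Unigene34476 on the other side at 70 and 15. The cation-transporting ATPase Unigene46140 had 4 reads in CATAS8-79 against 69 in PR107. The words vacuolar ATP synthase and major intrinsic protein found 0 called unigenes.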

How the data were processed

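Poly(A) RNA of pooled latex was sequenced by Illumina as 1 library per clone. The authors assembled unigenes de novo with SOAPdenovo, annotated them by best BLAST hit, and deposited read counts and RPKM per unigene for both libraries. The read aligner, and how reads shared by near-identical unigenes were assigned, are not given in the sources used here. The deposited RPKM equalled counts scaled by length and library total to within 5e-05. The authors' log2 ratios, p-values and FDR were not used, and best hits were read for called unigenes alone. Library totals were 6919776 reads (CATAS8-79) and 6867351 (PR107).

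Members were found by 11 search words, of which 10 had a hit, in the Nr and Swissprot texts of called unigenes, and 6 rows naming glutamate were left out. Members, families and lists were chosen with earlier results of these data known. Named were all aquaporins and proton pumps, all members of families of 4 or fewer, and otherwise the 2 with the most reads and the 2 with the largest ratio, with those sharing their best hit, and the extremes over all members. Unigene5602, whose text names a potassium channel too, was placed with cyclic nucleotide-gated channels after its text was seen.

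Ratios of reads per 1000000 counted reads had exact 95% Clopper-Pearson intervals. PCR copies carry no molecular identifiers, so intervals and floors (3 reads) cover counting error only. Because each clone had 1 library, edgeR's quasi-likelihood test has no residual degrees of freedom, and no replicate could be left out. Alternatives were TMM (edgeR 4.0.16) and median-ratio (DESeq2 1.42.0) scaling, summed RPKM, each database text alone, and sums without the member with the most reads. The ratio script was tested on simulated data. R 4.3.3 and Python 3.11.15 were used, with scipy 1.17.1, pandas 2.3.3, numpy 2.4.6 and matplotlib 3.10.9. None of the 68 unigene names matched the 50196 RefSeq genes of the species, so no position or sequence is given. Quantitative PCR and latex yields were not analysed here.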

Additional observations from a re-analysis of the deposited data

How the results depend on the processing

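No paired analysis was possible because there was 1 library per clone, and for the same reason no library could be left out. TMM and median-ratio scaling moved all log2 ratios by -0.05 and -0.03, changed no direction among the named unigenes, and put 2 and 1 members under 2-fold. With members numbered under 40000 alone, a choice made after seeing the data, 19 were higher in PR107, and with the Nr text alone 17 of 40 were higher in CATAS8-79 and 23 in PR107, which turns the majority. By summed RPKM the log2 ratio was -0.088 for aquaporins, 0.87 for calcium-transporting ATPases and -1.52 for potassium channels. Without the member with the most reads, the sum turned direction for the pyrophosphate-energized pump (-0.11) and calcium exchangers (-0.28), and moved to -1.58 for aquaporins, 0.48 for calcium-transporting ATPases and 3.98 for the remaining porin. The cause was not tested. Members with 3 or fewer reads in 1 clone numbered 10, and their ratios are the least precise.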
